A study of Rattus norvegicus with 192 samples.

Results

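The lung was examined 1 h after adult male Sprague-Dawley rats breathed phosphine gas. The samples were chosen by their titles, which name the tissue, the exposure and the time, and they make up 8 of the 192 arrays of the series. In the PH3 group, 4 rats had been exposed to 660 ppm phosphine for 25 min in a whole-body chamber, a product of 16500 ppm x min that the labels call a medium dose and give as 0.71 of the LCt50, the product that kills the median animal. In the Air group, 4 rats had 0 ppm for the same 25 min. No allele or other agent distinguished the groups, and all the rats were killed under ketamine and xylazine before the lung was frozen and ground whole. Each array came from a different rat, so p-values measure the spread between rats. Values are given in the order Rat343, Rat350, Rat351 and Rat357 for PH3 and Rat345, Rat352, Rat353 and Rat354 for Air.

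Phosphine is a fumigant that blocks cytochrome c oxidase, the last enzyme of the mitochondrial respiratory chain, and an animal under acute stress releases hormones that act on the lung. Glucocorticoids from the adrenal cortex enter cells, bind the glucocorticoid receptor and switch genes on and off. Catecholamines act through cell surface receptors, several of which raise cyclic AMP (cAMP), which in turn activates transcription factors of the CREB family. The lung is the site where the gas is taken up, and much of its RNA comes from the alveolar epithelium and the dense capillary bed around it.

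The values are log2 intensities after RMA, a method that subtracts background, equalizes the arrays and combines the probes of a probe set. Array medians were 5.27 to 5.31 in PH3 lungs and 5.29 to 5.32 in Air lungs, and the 8 arrays correlated at 0.982 to 0.992 with each other. A 3′ minus 5′ index of RNA integrity read from control probe sets was 0.181 ± 0.077 in PH3 lungs and 0.217 ± 0.098 in Air lungs (SD, n = 4 each). The lung label fitted the markers: the 12 genes of surfactant and alveolar type 2 cells averaged 10.7 to 10.8 in PH3 lungs and 10.8 to 10.9 in Air lungs, and the receptor Ager of alveolar type 1 cells read 12.85 to 13.01 in PH3 lungs and 12.88 to 13.04 in Air lungs. Of these lists 0 of 12 and 0 of 8 members passed the test. Heart muscle genes varied widely among the lungs, with list averages of 6.79, 7.37, 9.19 and 10.18 in PH3 lungs and 7.54, 7.13, 8.06 and 8.47 in Air lungs. This is a whole-organ measurement, in which fewer cells of a type and less RNA per cell cannot be told apart.

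One hour after phosphine, RNA was higher in the lung for 14 of 23 targets of the glucocorticoid receptor and for 7 of 15 cAMP response genes, with no falls in either list. Salt and water transport had 4 rises among 13 genes, the control of clotting and fibrinolysis 4 rises and 1 fall among 11, and endothelial regulators 6 rises and 3 falls among 25. The lists were chosen with earlier results of these data known, so all list counts here are a description. An effect is the PH3 mean minus the Air mean in log2 units, given with its SE from limma, where the spread is shared over the 32 lung arrays of all times. Calls were made where the adjusted p lay under 0.05. Of 31042 probe sets 731 were called higher, a background share of 2.35%, and 586 lower, a share of 1.89%. With each gene represented by its brightest probe set, 2.74% of 13438 genes rose and 2.61% fell. The rises were larger, with a median effect of 0.58 and 64 genes over 2-fold, against a median of -0.46 and 14 genes past that size among the falls. All 4 PH3 arrays lay above all 4 Air arrays for 642 genes (4.78%) and below them for 842 genes (6.27%), and this held for 304 of the genes that rose and 298 of those that fell. The median effect over all genes was -0.01. As shares of the 31042 probe sets, rises and falls were 0.966% and 0.705% with only the 8 arrays of 1 h, 1.18% and 0.821% with the rat as a random block over its lung, heart and kidney, and 1.39% and 1.08% without PH3 Rat343. The share of falls was also 1.08% without Air Rat352 and 1.13% without PH3 Rat357. The fit with the rat block held the 1 h arrays of lung, heart and kidney in place of the 32 lung arrays. Its spread was thus shared over organs, and the correlation it used between arrays of a rat was 0.0485. A call lost with that block therefore cannot be put down to the pairing by rat alone.

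The 4 exposed rats did not respond equally. Over the genes that rose, the median difference from the Air mean was 0.71 in PH3 Rat343, 0.56 in Rat350, 0.41 in Rat351 and 0.63 in Rat357, and over the genes that fell it was -0.54, -0.43, -0.35 and -0.52. Rat351 therefore had the smallest shift in both directions, which is a description, because the same arrays chose the genes.

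Metallothionein 2A, Mt2A, a small protein that binds zinc and other metals, had the largest effect among the genes called higher. It read 9.94, 9.45, 8.59 and 9.80 in PH3 lungs, against 6.84, 6.22, 7.19 and 7.19 in Air lungs. Every PH3 lung lay above every Air lung, by 2.59 ± 0.27 between the means, which is 6.00-fold (adjusted p = 1.39e-06). The rest of the metal list did not move with it. Of 12 metallothioneins and zinc transporters 1 rose and 0 fell, with a list median of 0.03. Mt1 read 3.01 to 3.38 in PH3 lungs and 3.01 to 3.33 in Air lungs, near the bottom of the arrays' scale, with an effect of 0.05 ± 0.13 (adjusted p = 0.921). The zinc importer Slc39a14 had an effect of 0.40 ± 0.12 (adjusted p = 0.064).

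The window around the Mt2A start is shown because this gene led the response. It runs from 250 bases before the start to 50 after it, and lies at chr19:10838659-10838958 on the minus strand of the rat build GRCr8, from RefSeq. Capitals mark the core of the metal response element, TGCNCNC on either strand.
Mt2A: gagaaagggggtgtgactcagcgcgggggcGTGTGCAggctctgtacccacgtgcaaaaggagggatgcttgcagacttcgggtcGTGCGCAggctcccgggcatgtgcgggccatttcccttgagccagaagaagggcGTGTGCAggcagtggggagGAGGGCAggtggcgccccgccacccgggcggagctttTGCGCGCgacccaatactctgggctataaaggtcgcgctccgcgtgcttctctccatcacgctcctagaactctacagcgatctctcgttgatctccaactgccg
The window holds 5 such cores, none of which overlaps another motif searched. At least 1 core was found in 60% of 11057 promoters of the same length, and at least 5 cores in 102 of them (0.922%). Among promoters of genes that rose, 3 of 299 held 5 or more (1%). A match of letters is a description of the window and not a binding site.

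Of the 23 measured targets of the glucocorticoid receptor 14 rose and 0 fell, set against background shares of 2.74% and 2.61%, and the median effect was 0.82, set against -0.01 over all genes. The list was chosen with earlier results of these data known, so these counts are a description and no independent evidence. Fkbp5, a co-chaperone that restrains the receptor, read 10.25, 9.83, 9.35 and 9.87 in PH3 lungs and 7.97, 6.81, 7.64 and 7.36 in Air lungs. It rose 5.19-fold (2.38 ± 0.28, adjusted p = 6.02e-06). Map3k6, a stress-activated kinase, read 8.68, 8.25, 7.31 and 8.31 in PH3 lungs and 6.49, 5.73, 5.79 and 5.96 in Air lungs, a rise of 2.15 ± 0.23 (adjusted p = 2.44e-06). For both genes the groups were separate, and PH3 Rat351 was the lowest of the exposed lungs.

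Il1r2, a decoy receptor that binds interleukin-1 without passing a signal, read 6.61, 6.81, 6.17 and 6.78 in PH3 lungs and 4.39, 5.19, 5.14 and 5.13 in Air lungs, a rise of 1.63 ± 0.24 (adjusted p = 9.97e-05). Errfi1, a feedback inhibitor of the EGF receptor, rose by 1.42 ± 0.23 (adjusted p = 0.00021). Glul, which makes glutamine, rose by 0.67 ± 0.10 (adjusted p = 7.71e-05), with 10.78 to 11.11 in PH3 lungs and 10.15 to 10.50 in Air lungs. Klf15, Cebpd and Klf9, transcription factors, rose by 1.21 ± 0.26, 1.26 ± 0.34 and 0.69 ± 0.17. Tsc22d3, known as GILZ, an inhibitor of inflammatory signalling, rose by 0.81 ± 0.18 (adjusted p = 0.00766). The other 9 members did not pass the test, among them Per1 (1.43 ± 0.44, adjusted p = 0.0621), Ddit4 (1.21 ± 0.40, adjusted p = 0.0914), Sgk1 (0.32 ± 0.13, adjusted p = 0.176) and Anxa1 (-0.03 ± 0.07). The list's count was 8 with only the 8 arrays of 1 h and 9 without Air Rat352.

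Genes of the receptor itself and its helpers gave no calls, with 0 of 10 members past the test. The glucocorticoid receptor gene Nr3c1 read 8.75, 8.88, 8.89 and 8.61 in PH3 lungs and 9.06, 9.15, 9.09 and 8.91 in Air lungs. The groups were separate, yet the effect of -0.27 ± 0.09 did not pass (adjusted p = 0.106). The partner gene Fkbp4, a co-chaperone that favours the receptor's activity, had an effect of -0.29 ± 0.13 (adjusted p = 0.241).

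A glucocorticoid response element, written AGAACA, 3 bases and TGTTCT with at most 2 of the 12 letters changed, was found in the promoter windows of 0 of 21 glucocorticoid targets, in 5 of 299 genes that rose (1.67%), in 2 of 292 that fell (0.685%) and in 97 of 11057 promoters (0.877%). No match says only that these letters are not in the 300 bases searched. Tmem252, a membrane protein among the 12 largest rises, was a gene with a match, and 60 bases around it are shown, from chr1:231743212-231743271 on the plus strand of GRCr8, with the match in capitals.
Tmem252: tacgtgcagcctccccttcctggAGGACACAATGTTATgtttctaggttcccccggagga
Tmem252 read 10.92, 10.17, 9.06 and 10.40 in PH3 lungs and 8.77, 8.08, 8.31 and 8.01 in Air lungs, a rise of 1.84 ± 0.30 (adjusted p = 0.000233) with no overlap.

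**Figure D1:**
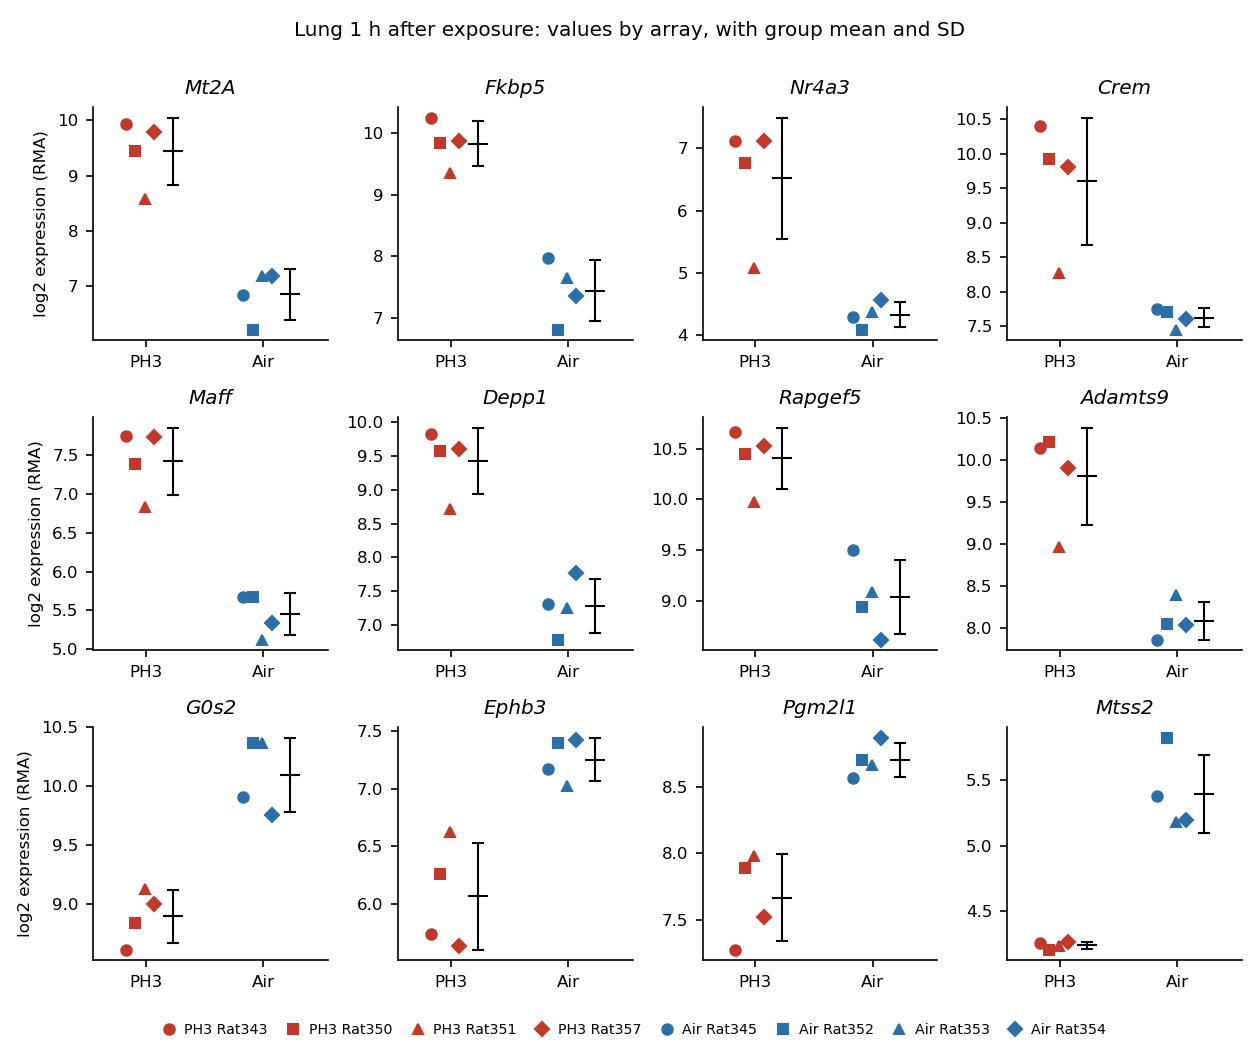
Log2 expression of 12 genes in each of the 8 lung arrays of 1 h, PH3 left of Air, with a marker per rat and the group mean and SD (n = 4 each) beside the points. In each panel the groups are separate, and PH3 Rat351 (triangle) is the lowest exposed lung for the 8 genes that rose.

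In the cAMP response list 7 of 15 measured members rose and 0 fell, with a median effect of 0.74. The other 8 did not pass the test, and 5 of the 15 had effects below 0. Crem, whose short product ICER is a repressor made under cAMP, read 10.40, 9.93, 8.27 and 9.81 in PH3 lungs and 7.75, 7.70, 7.45 and 7.61 in Air lungs, a rise of 1.97 ± 0.24 (adjusted p = 7.82e-06). A dimmer Crem probe set had an effect of 0.52 and was not called (adjusted p = 0.0528), while 3 others were called higher. Gal, the neuropeptide galanin, read 7.08, 7.01, 6.23 and 7.15 in PH3 lungs and 5.15, 5.01, 4.79 and 4.66 in Air lungs, a rise of 1.97 ± 0.25 (adjusted p = 1.52e-05). Ppargc1a, the coactivator PGC-1α that drives mitochondrial genes, read 5.93, 6.00, 5.09 and 6.40 in PH3 lungs and 4.79, 4.16, 4.20 and 4.31 in Air lungs, a rise of 1.49 ± 0.24 (adjusted p = 0.000204).

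Enzymes that break down cyclic nucleotides were among the calls, Pde10a (1.36 ± 0.22), Pde4d (0.97 ± 0.18) and Pde4b (0.74 ± 0.22, adjusted p = 0.0488). Sik1, a kinase that limits CREB through its coactivators, read 8.85, 7.60, 6.71 and 8.25 in PH3 lungs and 6.44, 6.44, 6.20 and 6.79 in Air lungs, so PH3 Rat351 overlapped the Air range. The rise was 1.38 ± 0.29 (adjusted p = 0.0035), and 0.126 was its adjusted p with only the 8 arrays of 1 h, a setting that left 3 calls in the list. The receptor gene Adrb1 had an effect of -0.54 ± 0.23 (adjusted p = 0.232).

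The full cAMP response element TGACGTCA was found in 14 of 299 promoters of genes that rose (4.68%), in 2 of 292 of genes that fell (0.685%) and in 320 of 11057 promoters (2.89%). Only 1 of the 7 called members of the list, Ppargc1a, held it. It is shown with 3 other genes named here that rose and held the element, 60 bases each from GRCr8, with the element in capitals: Ppargc1a at chr14:63634101-63634160 on the plus strand, Maff at chr7:112792710-112792769 on the plus strand, Dusp1 at chr10:17184703-17184762 on the plus strand and Ppp1r15a at chr1:105139629-105139688 on the minus strand.
Ppargc1a: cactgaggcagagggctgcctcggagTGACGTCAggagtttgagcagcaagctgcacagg
Maff: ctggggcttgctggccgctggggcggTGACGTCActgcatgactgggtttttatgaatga
Dusp1: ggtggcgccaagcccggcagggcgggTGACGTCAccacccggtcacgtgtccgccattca
Ppp1r15a: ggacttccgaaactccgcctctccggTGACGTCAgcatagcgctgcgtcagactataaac
Counted from the gene start, the element begins at -51 in Maff, -66 in Ppp1r15a, -124 in Dusp1 and -181 in Ppargc1a. Other motifs were searched on both strands: the receptor element's first part alone (AGAACA), in 11.7% of promoters of genes that rose and 13.2% of all, AP-1 (TGANTCA), in 6.35% of promoters of genes that rose and 5.39% of all, the E-box (CACGTG), in 12.7% and 8.96%, and an NF-kB element (GGGA, 4 bases, CC), in 27.4% and 25.1%.

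Immediate early genes, which are transcribed within minutes of a stimulus without new protein, gave a mixed picture. Of 23 measured members 5 rose and 0 fell, with a median effect of 0.20. Nr4a3, a nuclear receptor without a known hormone, read 7.12, 6.76, 5.08 and 7.12 in PH3 lungs and 4.28, 4.08, 4.38 and 4.56 in Air lungs, a 4.57-fold rise (2.19 ± 0.26, adjusted p = 6.64e-06). Of its other probe sets the brighter was called, with an effect of 3.32, and the dimmer had 0.07 (adjusted p = 0.87). Fosb, a partner in AP-1, read 6.58, 5.21, 5.19 and 6.16 in PH3 lungs and 4.25, 4.27, 4.30 and 4.82 in Air lungs, a rise of 1.37 ± 0.22 (adjusted p = 0.00021). The other 18 did not pass. Among them Nr4a1, related to Nr4a3, read 8.31, 7.06, 7.18 and 7.54 in PH3 lungs and 6.65, 6.98, 6.68 and 6.72 in Air lungs, so that the groups were separate, with an effect of 0.77 ± 0.24 (adjusted p = 0.0717). Egr1 read 7.99 to 8.17 in PH3 lungs and 7.98 to 8.17 in Air lungs, with an effect of -0.00 ± 0.21, and Jun, Junb, Myc and Klf4 had effects of 0.23, 0.17, 0.11 and 0.20.

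Atf3, a stress transcription factor, read 7.40, 6.24, 6.20 and 7.81 in PH3 lungs and 5.78, 5.84, 5.54 and 6.05 in Air lungs, a rise of 1.11 ± 0.29 (adjusted p = 0.0254). Its call was lost without PH3 Rat343 or Rat357 or without Air Rat345, Rat352 or Rat353 (adjusted p up to 0.146). With the rat block adjusted p was 0.27 for Fosb, 0.319 for Atf3 and 0.108 for Csrnp1, a nuclear protein that had risen by 1.04 ± 0.22 (adjusted p = 0.0042). The list's count was 1 with that block, 1 with only the 8 arrays of 1 h and 3 without any of the same 5 rats.

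Dusp1, a phosphatase that switches off MAP kinases, was the only call among 10 MAP kinase feedback genes. It read 11.70, 11.50, 10.42 and 10.94 in PH3 lungs and 10.50, 9.99, 10.39 and 9.92 in Air lungs, so PH3 Rat351 overlapped the Air range (0.94 ± 0.24, adjusted p = 0.0201). The call was lost without PH3 Rat343 or Rat350 or Air Rat352 or Rat354 (adjusted p up to 0.118) and with the rat block (adjusted p = 0.0546). A dimmer Dusp1 probe set had an effect of 1.25 and was not called (adjusted p = 0.0547). Among 19 clock genes 1 rose, Nfil3, a repressor of the clock, by 1.17 ± 0.27 (adjusted p = 0.00978; 0.0546 without Air Rat345 and 0.0788 with only the 8 arrays of 1 h). Air Rat345 had the highest average of this list among the Air lungs, 7.43 against 6.89, 7.08 and 7.24, and PH3 Rat343 had 7.42. For Dbp, a clock output factor, Air Rat345 read 9.05, against 5.58 to 7.46 in the other Air lungs.

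Among the regulators of oxidative stress, Maff, a small Maf protein that pairs with NRF2 and related factors, rose 3.93-fold. It read 7.75, 7.38, 6.83 and 7.74 in PH3 lungs and 5.68, 5.67, 5.12 and 5.34 in Air lungs (1.97 ± 0.17, adjusted p = 1.51e-07), with no overlap. The other 7 members of its list gave no call, and Nfe2l2, the NRF2 gene, had an effect of -0.24 ± 0.09 (adjusted p = 0.165). Of 19 antioxidant and NRF2 target enzymes 1 rose and 0 fell, with a median of 0.04. That gene was Txnrd1, a thioredoxin reductase, with 9.09 to 9.19 in PH3 lungs and 8.83 to 8.92 in Air lungs (0.28 ± 0.08, adjusted p = 0.0297). Its call was lost when any rat but PH3 Rat351 and Air Rat345 was left out (adjusted p up to 0.0848), and with the rat block (adjusted p = 0.172). A dimmer Txnrd1 probe set had an effect of 0.23 and was not called (adjusted p = 0.22).

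Cell stress lists gave a few calls. Of 16 ATF4 targets 3 rose, of 11 heat shock proteins 2 rose and 1 fell, and of 12 chaperones of the endoplasmic reticulum 0 passed. The background shares were 2.74% of genes higher and 2.61% lower, and the list medians were 0.20, 0.0009 and -0.06. Hspa1a, the inducible HSP70, read 10.45, 9.87, 9.96 and 10.09 in PH3 lungs and 8.68, 9.06, 8.89 and 8.62 in Air lungs, a rise of 1.28 ± 0.20 (adjusted p = 0.000173). Bag3, its co-chaperone, rose by 0.38 ± 0.08 (adjusted p = 0.00422; 0.22 with the rat block). Slc7a5, an amino acid transporter, read 6.97, 6.54, 5.97 and 6.63 in PH3 lungs and 5.86, 5.80, 5.23 and 5.89 in Air lungs, a rise of 0.83 ± 0.18 (adjusted p = 0.00637; 0.0905 with the rat block). The calls of Atf4 (0.28 ± 0.07), of Ppp1r15a (0.34 ± 0.09), which restarts translation, and of the co-chaperone Dnaja1 (-0.38 ± 0.11) were each lost when any of several rats was left out, PH3 Rat343 among them, with adjusted p up to 0.154, 0.162 and 0.12. The block took them away as well (adjusted p = 0.417, 0.41 and 0.0543). A dimmer Dnaja1 probe set had an effect of -0.26 and was not called (adjusted p = 0.232).

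Of 14 growth arrest genes 3 rose and 0 fell. Cdkn1a, the cell cycle inhibitor p21, read 10.05, 9.65, 8.88 and 9.89 in PH3 lungs and 7.21, 7.85, 7.95 and 8.20 in Air lungs, a 3.52-fold rise (1.82 ± 0.28, adjusted p = 0.000148). Its second probe set rose by 2.35. Sesn1 and Gadd45a, stress genes, rose by 0.51 ± 0.10 and 0.40 ± 0.07, with adjusted p of 0.333 and 0.23 under the rat block. Mdm2, a target of p53 as Cdkn1a is, had an effect of -0.16 ± 0.10 (adjusted p = 0.501). Depp1, an autophagy regulator under FOXO factors, read 9.83, 9.57, 8.72 and 9.60 in PH3 lungs and 7.31, 6.78, 7.26 and 7.76 in Air lungs, a 4.44-fold rise (2.15 ± 0.34, adjusted p = 0.000185).

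Phosphine acts on cytochrome c oxidase, and the RNA of its subunits gave no call in either direction, with 0 of 11 past the test and a median effect of 0.12. Cox4i1 read 11.87 to 12.26 in PH3 lungs and 11.82 to 12.12 in Air lungs. Of 13 other subunits of the respiratory chain and ATP synthase 0 passed, although all 13 effects were above 0 (0.06 to 0.23). This list averaged 9.95, 10.14, 10.35 and 10.56 in PH3 lungs and 10.03, 10.10, 10.28 and 10.12 in Air lungs. The PH3 lungs ranked as in their heart muscle averages, 6.79, 7.37, 9.19 and 10.18, and the Air lungs did not. A part of heart muscle RNA in these effects was not tested.

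Among genes that set the choice of fuel, 3 of 19 rose and 0 fell. Pdk4, which shuts glucose carbon out of the mitochondrion, read 9.0, 9.23, 10.12 and 9.87 in PH3 lungs and 7.26, 7.31, 8.50 and 7.71 in Air lungs, a rise of 1.86 ± 0.44 (adjusted p = 0.0119). Pfkfb3, which speeds glycolysis, read 7.62, 6.22, 6.08 and 6.56 in PH3 lungs and 5.34, 4.41, 4.43 and 4.95 in Air lungs, a rise of 1.84 ± 0.31 (adjusted p = 0.000341). A dimmer Pfkfb3 probe set had an effect of 0.31 and was not called (adjusted p = 0.2). G0s2, an inhibitor of the fat-splitting lipase ATGL, was a large fall: 8.61, 8.84, 9.13 and 8.99 in PH3 lungs and 9.90, 10.37, 10.36 and 9.76 in Air lungs, 2.31-fold lower (-1.21 ± 0.17, adjusted p = 4.96e-05). Fat cell markers averaged 4.80, 6.54, 6.62 and 7.25 in PH3 lungs and 4.70, 5.79, 7.03 and 6.36 in Air lungs. The calls of Pdk4, Pfkfb3 and G0s2 held with that average as a covariate, an alternative added after the data were seen. Such a covariate cannot remove a change within fat cells, and the source of these RNAs was not tested. Cpt1a, the gate of fat burning, rose by 0.41 ± 0.12 (adjusted p = 0.048), a call lost when any of the 8 rats was left out (adjusted p up to 0.178) and with the rat block (adjusted p = 0.169). A dimmer Cpt1a probe set had an effect of 0.32 and was not called (adjusted p = 0.417).

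Glycolysis and hypoxia genes were mostly without calls, with 2 of 21 higher and 1 lower. Slc16a3, the lactate exporter MCT4, read 6.81, 6.86, 6.32 and 6.74 in PH3 lungs and 5.81, 5.84, 5.75 and 5.75 in Air lungs, a rise of 0.89 ± 0.14 (adjusted p = 0.000163). Vegfa and Ldha, targets of the hypoxia factor HIF-1, had effects of -0.19 ± 0.08 and 0.10 ± 0.08, neither of them called. The calls of Hk2, a hexokinase (0.55 ± 0.15), and of P4ha1, which hydroxylates collagen (-0.38 ± 0.11), were lost without PH3 Rat343 and without several other rats (adjusted p up to 0.106 and 0.15), and with the rat block (adjusted p = 0.678 and 0.265).

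Few inflammatory genes were called, some higher and some lower. Of 24 interleukins, their receptors and related growth factors 3 rose and 0 fell, of 24 chemokines 0 rose and 2 fell, and of 9 chemokine receptors 1 fell. The background shares were 2.74% of genes higher and 2.61% lower, and the list medians were 0.07, -0.07 and -0.30. Il1a, an alarm cytokine, read 9.87, 8.33, 6.83 and 8.49 in PH3 lungs and 6.32, 6.58, 6.45 and 6.09 in Air lungs. The groups were separate, but PH3 Rat351 lay only just above the Air range (2.02 ± 0.39, adjusted p = 0.00187; 0.0911 with only the 8 arrays of 1 h). The related Il1b read 7.50 to 8.46 in PH3 lungs and 7.90 to 8.42 in Air lungs, with an effect of -0.16 ± 0.21, and Il6 and Tnf had effects of 0.14 and -0.34, neither of them called. The receptor genes Il4r and Il6r rose by 0.90 ± 0.15 and 0.76 ± 0.13 (adjusted p = 0.000486 and 0.000358; 0.0743 and 0.0631 with only the 8 arrays of 1 h), and Il6r had an adjusted p of 0.136 with the rat block.

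The monocyte chemokine Ccl2 read 3.89, 4.45, 5.56 and 4.64 in PH3 lungs and 5.47, 6.27, 5.99 and 6.06 in Air lungs. It was 2.49-fold lower (-1.31 ± 0.25, adjusted p = 0.0016; 0.0803 with only the 8 arrays of 1 h), with PH3 Rat351 inside the Air range. Ccl7, a related chemokine, fell by 0.89 ± 0.22 (adjusted p = 0.0139), a call lost without PH3 Rat343 or Air Rat352 (adjusted p up to 0.0862) and with the rat block (adjusted p = 0.0834). PH3 Rat351 lay inside the Air range for Ccl7 too, and its call was lost with only the 8 arrays of 1 h. Nfkbia, the inhibitor of NF-kB, read 11.68, 11.37, 10.53 and 11.56 in PH3 lungs and 10.52, 10.03, 10.24 and 10.45 in Air lungs (0.97 ± 0.24, adjusted p = 0.0178), and lost its call without PH3 Rat343, PH3 Rat357 or Air Rat352 (adjusted p up to 0.0931). The adhesion molecule Icam1 fell by 0.30 ± 0.07 (adjusted p = 0.0183), a call lost without PH3 Rat350 or Rat357 or Air Rat352 (adjusted p up to 0.0908). With the rat block adjusted p was 0.0643 for Nfkbia and 0.764 for Icam1. None of 14 prostaglandin and leukotriene genes and none of 12 interferon response genes passed.

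Endothelial regulators split, with 6 of 25 higher and 3 lower. The genes around sphingosine 1-phosphate, a lipid that keeps the capillary wall tight, did not move together. Sphk1, the kinase that makes it, read 7.73, 6.42, 6.24 and 6.85 in PH3 lungs and 5.61, 5.54, 5.60 and 5.78 in Air lungs, a rise of 1.18 ± 0.22 (adjusted p = 0.000981; 0.073 with only the 8 arrays of 1 h). S1pr1, its receptor, rose by 0.68 ± 0.13 (adjusted p = 0.00151), with values of 11.31 to 11.53 in PH3 lungs and 10.64 to 10.88 in Air lungs. Spns2, the exporter that releases it from endothelium, read 7.18, 7.84, 8.42 and 7.66 in PH3 lungs and 9.07, 9.26, 8.99 and 8.95 in Air lungs, 2.45-fold lower (-1.29 ± 0.17, adjusted p = 1.98e-05). A second Spns2 probe set fell by 1.22.

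Of the other endothelial calls, Nos3, the endothelial nitric oxide synthase, rose by 0.72 ± 0.17 (adjusted p = 0.0116), and Cldn5, a tight junction protein, by 0.63 ± 0.09 (adjusted p = 3.14e-05). The peptide gene Apln rose by 0.82 ± 0.18 (adjusted p = 0.00772; 0.0539 without PH3 Rat343 and 0.0912 with only the 8 arrays of 1 h), and its receptor gene Aplnr fell by 0.49 ± 0.14 (adjusted p = 0.0432). Sox17 was also called, with a rise of 0.72 and an adjusted p of 0.0909 under the rat block. Its other probe sets had effects of 0.97, called, and -0.15, not called. Of the 25 members 16 were not called, among them Pecam1 (0.12 ± 0.09), Tie1 (-0.05 ± 0.08) and Vwf (-0.19 ± 0.14). The list's count of rises was 3 with only the 8 arrays of 1 h and 3 with the rat block.

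Genes of clot removal and clot start changed as well, with 4 of 11 higher and 1 lower. Plat, the tissue plasminogen activator, read 10.51, 10.44, 9.88 and 10.42 in PH3 lungs and 9.33, 9.26, 9.24 and 9.19 in Air lungs, a 2.08-fold rise (1.06 ± 0.14, adjusted p = 1.98e-05). Plau, the urokinase activator, went the other way, with 7.0, 7.22, 7.79 and 6.59 in PH3 lungs and 8.06, 8.02, 8.02 and 8.08 in Air lungs (-0.90 ± 0.17, adjusted p = 0.00184; 0.0727 with only the 8 arrays of 1 h), while its receptor gene Plaur rose by 1.52 ± 0.23 (adjusted p = 0.000143). Both groups were separate for all 3 genes. F3, tissue factor, and Procr, the protein C receptor, rose by 0.71 ± 0.18 and 0.88 ± 0.20. Procr's adjusted p was 0.148 with the rat block, which left 2 of the list's 4 rises.

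Signals of development were mixed too. Of 14 Notch genes 2 rose and 0 fell: the ligand Dll1 read 7.44, 7.87, 6.75 and 7.67 in PH3 lungs and 5.93, 5.86, 5.98 and 6.10 in Air lungs (1.47 ± 0.23, adjusted p = 0.000143), and the target Heyl read 6.98, 6.67, 6.68 and 6.96 in PH3 lungs and 5.63, 5.26, 5.52 and 5.84 in Air lungs (1.26 ± 0.15, adjusted p = 6.43e-06). The endothelial ligand Dll4 had an effect of -0.44 ± 0.13 (adjusted p = 0.0515). Of 18 BMP and TGF-beta genes 2 rose and 3 fell. Bmp2 rose by 1.49 ± 0.32 (adjusted p = 0.00447) with PH3 Rat351 inside the Air range and an adjusted p of 0.0849 with only the 8 arrays of 1 h, and Bmp4 fell by 0.51 ± 0.11 (adjusted p = 0.00704). Id1, a target of BMP signals, rose by 0.63 ± 0.11, and Bambi, a decoy receptor, fell by 0.84 ± 0.15, with adjusted p of 0.0564 and 0.0615 under the rat block. Nog, a BMP antagonist, fell by 0.89 ± 0.23 (adjusted p = 0.0222), a call lost without PH3 Rat343, Rat350 or Rat357 or Air Rat352 or Rat354 (adjusted p up to 0.0977), and its dimmer probe set had an effect of -0.12.

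Several of the largest falls were receptors and transcription factors. Ahr, the aryl hydrocarbon receptor, read 5.36, 5.36, 5.38 and 5.04 in PH3 lungs and 6.38, 6.76, 6.41 and 6.53 in Air lungs, 2.35-fold lower (-1.23 ± 0.20, adjusted p = 0.00031). A dimmer Ahr probe set had an effect of -0.11 and was not called (adjusted p = 0.758). None of the 6 other members of its list was called, and its target Cyp1a1 read 4.71 to 7.05 in PH3 lungs and 5.17 to 7.24 in Air lungs. Ephb3, a receptor for ephrins, read 5.74, 6.26, 6.63 and 5.63 in PH3 lungs and 7.17, 7.40, 7.02 and 7.42 in Air lungs (-1.19 ± 0.17, adjusted p = 4.48e-05). Meox2 and Meis2, homeobox factors, fell by 1.15 ± 0.22 and 1.05 ± 0.13 (adjusted p = 0.00183 and 1.37e-05), and with only the 8 arrays of 1 h Meox2 had an adjusted p of 0.0626.

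Mtss2, a protein that links membrane and actin, read 4.26, 4.20, 4.24 and 4.27 in PH3 lungs and 5.38, 5.82, 5.18 and 5.20 in Air lungs (-1.15 ± 0.15, adjusted p = 1.37e-05). Pgm2l1, which makes glucose 1,6-bisphosphate, read 7.27, 7.89, 7.98 and 7.52 in PH3 lungs and 8.57, 8.70, 8.67 and 8.87 in Air lungs (-1.04 ± 0.14, adjusted p = 1.8e-05). Dact1, an antagonist of Wnt signals, and Btbd3, known for shaping dendrites in mouse neurons, fell by 1.00 ± 0.18 and 1.10 ± 0.20, and Dact1 had an adjusted p of 0.169 against the Air arrays of all times. Kit, the stem cell factor receptor, read 6.46, 6.73, 7.34 and 6.18 in PH3 lungs and 7.71, 7.76, 7.57 and 7.85 in Air lungs (-1.04 ± 0.20, adjusted p = 0.00198). The other 7 mast cell markers gave no call, and Cpa3 and Ms4a2, which define mast cells, had effects of 0.07 ± 0.42 and -0.02 ± 0.19.

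Genes of salt and water transport, which keep the air spaces dry, gave 4 rises and 0 falls among 13. Atp1b1, a subunit of the sodium pump, read 11.74, 11.75, 11.52 and 11.66 in PH3 lungs and 11.03, 10.64, 10.90 and 10.89 in Air lungs (0.80 ± 0.14, adjusted p = 0.000511). Nedd4l, a ligase that removes the epithelial sodium channel from the membrane, read 8.64, 8.64, 8.41 and 8.53 in PH3 lungs and 8.02, 7.75, 7.88 and 7.89 in Air lungs (0.67 ± 0.08, adjusted p = 7.82e-06). Aqp1, a water channel of the capillary, rose by 0.49 ± 0.10 (adjusted p = 0.00207; 0.058 with only the 8 arrays of 1 h). The potassium channel gene Kcnj15 rose by 0.77 ± 0.18 (adjusted p = 0.00996), a call lost without PH3 Rat343 or Air Rat352 (adjusted p up to 0.0713) and with the rat block (adjusted p = 0.47). The channel subunits Scnn1a, Scnn1b and Scnn1g had effects of 0.07, -0.13 and -0.08, none of them called.

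Secreted proteases of the ADAMTS family made up all 3 calls among 18 matrix genes. Adamts9 read 10.14, 10.21, 8.96 and 9.90 in PH3 lungs and 7.86, 8.04, 8.39 and 8.03 in Air lungs, a 3.30-fold rise (1.72 ± 0.20, adjusted p = 6.26e-06). A dimmer Adamts9 probe set had an effect of -0.19 and was not called (adjusted p = 0.563). Adamts1 rose by 0.88 ± 0.21 (adjusted p = 0.0136; 0.0966 without PH3 Rat343 and 0.0523 without PH3 Rat357), and Adamts4 by 0.67 ± 0.19 (adjusted p = 0.0403), a call lost when any of 7 rats was left out (adjusted p up to 0.184). With the rat block adjusted p was 0.0997 and 0.715 for these 2 genes.

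Abra, which activates SRF through actin and is known from striated muscle, read 5.58, 4.89, 5.78 and 8.36 in PH3 lungs and 3.47, 3.54, 4.09 and 3.58 in Air lungs, a rise of 2.49 ± 0.41 (adjusted p = 0.000345; 0.091 with only the 8 arrays of 1 h). Its highest value was in PH3 Rat357, the lung with the highest average of heart muscle genes, 10.18, and it read 5.58 in PH3 Rat343, which had the lowest average, 6.79. Abra was also called with the heart muscle average as a covariate, an alternative chosen after the data were seen. In the hearts of the same rats it rose by 2.36 ± 0.36 (adjusted p = 0.000624), and in kidney its effect was 0.24 ± 0.15, not called. A covariate for heart muscle content cannot remove a rise within that muscle, and the source of the Abra RNA was not tested. Fhl2 and Srf, also of the actin list, rose by 0.71 ± 0.19 and 0.33 ± 0.09, and both lost their calls without PH3 Rat343 or Rat357 or Air Rat354, among others (adjusted p up to 0.128 and 0.218), Srf with the rat block too (adjusted p = 0.334). A dimmer Fhl2 probe set had an effect of 0.68, and dimmer Srf probe sets had -0.03 and 0.20, none of them called. None of the 10 heart muscle genes was called.

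B cell markers were low in the exposed lungs. The list averaged 5.50, 5.71, 6.18 and 6.12 in PH3 lungs and 6.77, 6.23, 6.27 and 6.30 in Air lungs, so the groups did not overlap, although only 1 of its 7 members was called, with a list median of -0.66. That member was Bank1, a scaffold of the B cell receptor (-0.82 ± 0.21, adjusted p = 0.0228), a call lost without PH3 Rat350 or Rat357 or Air Rat345, Rat353 or Rat354 (adjusted p up to 0.084). Fcer2, the IgE receptor CD23 of B cells, read 3.79, 4.70, 4.39 and 4.38 in PH3 lungs and 5.70, 5.43, 5.32 and 5.61 in Air lungs (-1.20 ± 0.26, adjusted p = 0.00625). With the B cell average as a covariate the adjusted p of Fcer2 was 0.19 and that of Bank1 was 0.128. Bank1 is itself part of that average, and the average did not overlap between the groups. This covariate therefore cannot tell B cells from exposure. A dimmer Fcer2 probe set had an effect of -0.73 and was not called (adjusted p = 0.0505). Cxcr4, a chemokine receptor of lymphocytes and other cells, read 9.02, 9.21, 9.04 and 8.94 in PH3 lungs and 9.75, 10.05, 9.74 and 9.38 in Air lungs (-0.68 ± 0.11, adjusted p = 0.000439; 0.0652 with the rat block). Of 16 T and NK cell markers 0 passed.

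Red cell markers averaged 6.73 to 7.05 in PH3 lungs and 6.15 to 6.81 in Air lungs, with 0 of 9 called and all 9 effects above 0. Platelet markers averaged 5.40 to 6.20 in PH3 lungs and 5.23 to 5.87 in Air lungs, and 1 of 6 was called: Ppbp, at 3.44 to 4.35 in PH3 lungs and 3.18 to 3.27 in Air lungs (adjusted p = 0.0414; 0.229 without PH3 Rat357, 0.318 with the rat block, and above the threshold too when any of the Air rats was left out). Of 8 macrophage markers Cd14, a receptor for bacterial lipid, rose by 0.42 ± 0.12 (adjusted p = 0.0362), a call lost if PH3 Rat343 or Rat357 was left out, and likewise for each of Air Rat352, Rat353 and Rat354 (adjusted p up to 0.169) and with the rat block (0.288). Neutrophil markers averaged 6.28 to 7.52 in PH3 lungs and 6.88 to 7.29 in Air lungs, with 0 of 7 called. With a red cell or a B cell average as covariate, the shares of probe sets called were 1.55% and 1.21% higher and 1.21% and 0.844% lower. The B cell average did not overlap between the groups, so its covariate cannot separate B cells from exposure. The part of any of these cells in the response was not tested.

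**Figure D2:**
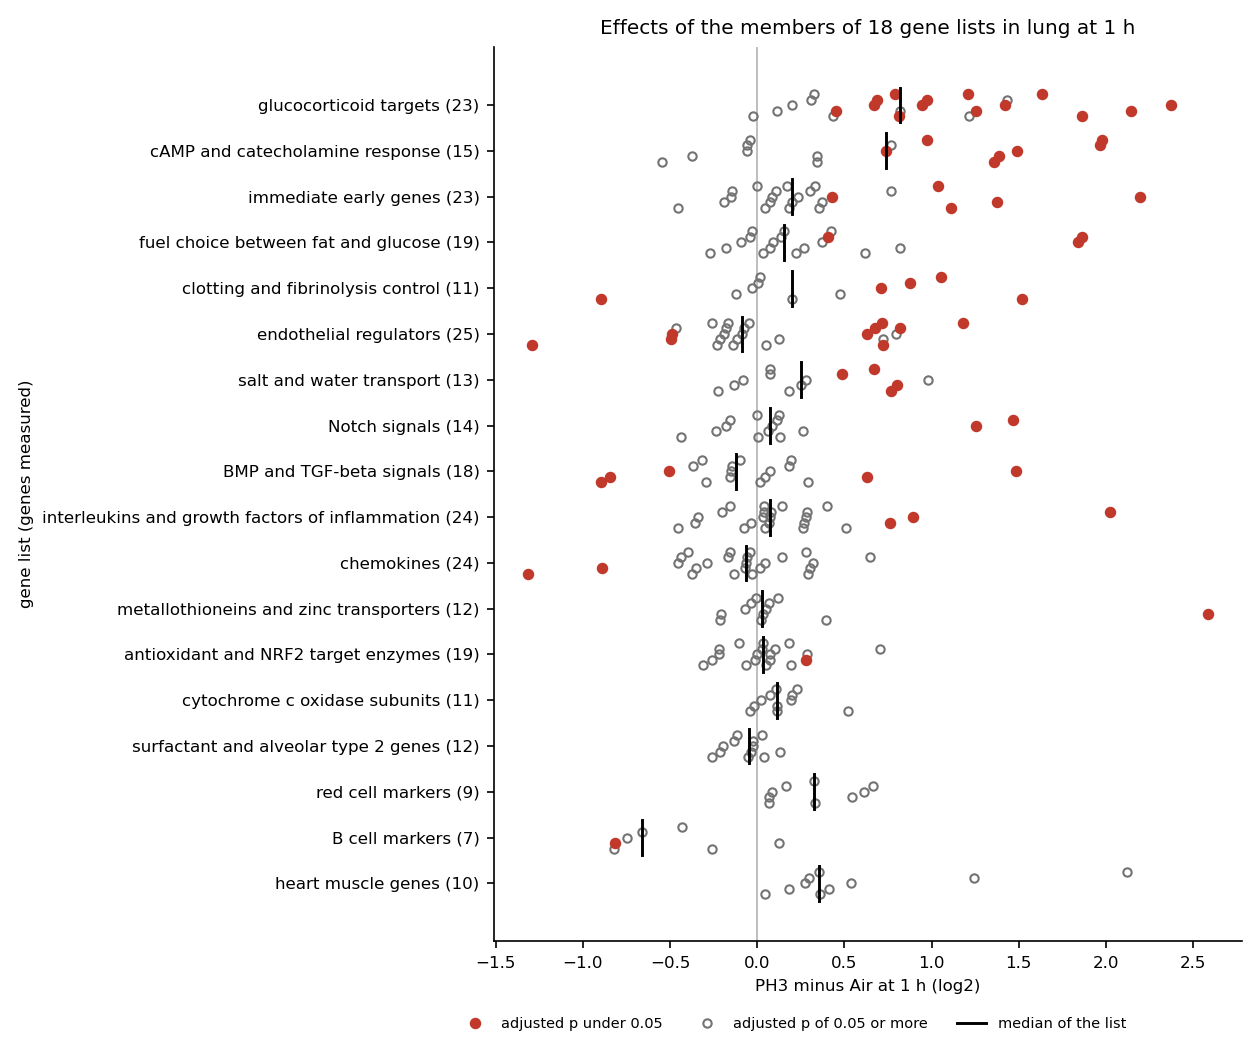
Effects (PH3 minus Air, log2) of the measured members of 18 gene lists, with red points for members at an adjusted p under 0.05, open points for the rest and a black line at each list's median. Glucocorticoid targets and cAMP response genes have medians of 0.82 and 0.74, and calls among endothelial regulators and BMP and TGF-beta signals lie on both sides of 0.

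**Figure D3:**
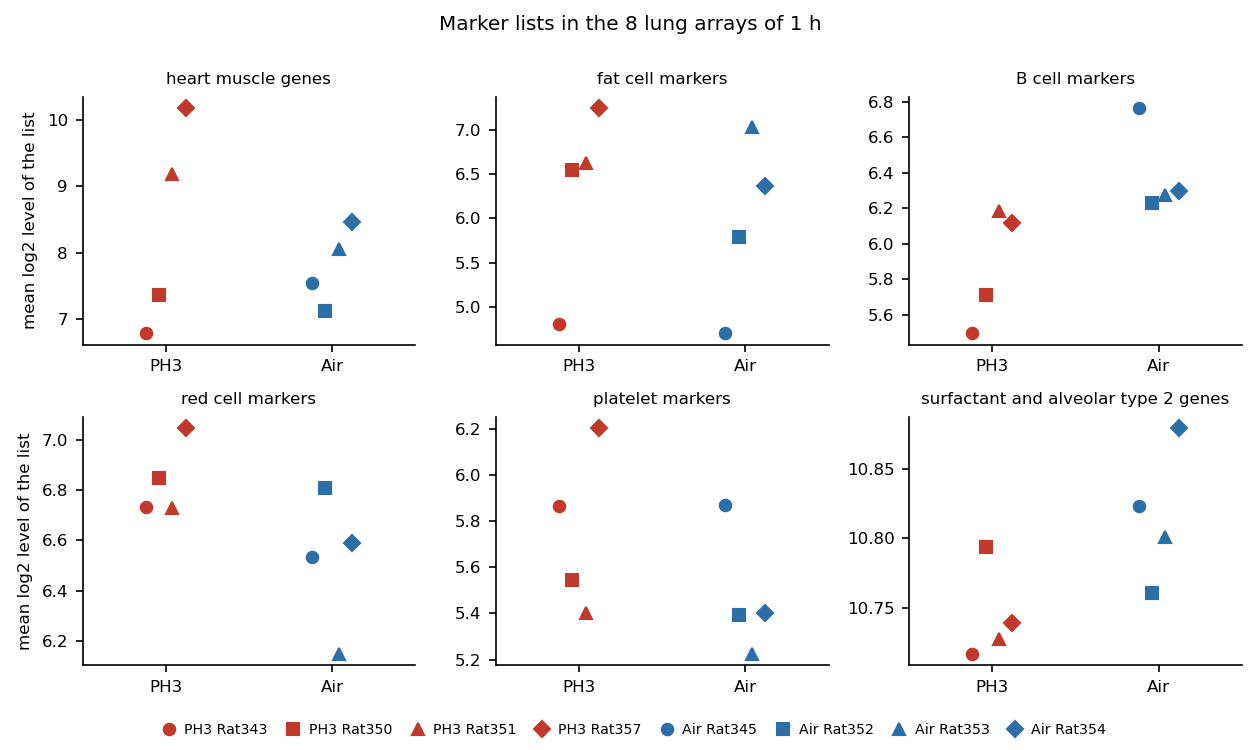
Mean log2 level of 6 marker lists in each of the 8 lung arrays, PH3 left of Air, with a marker per rat. B cell marker averages are 5.50 to 6.18 in PH3 lungs and 6.23 to 6.77 in Air lungs, and heart muscle averages span 6.79 to 10.18 in PH3 lungs and 7.13 to 8.47 in Air lungs.

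Different rats were sampled at 3, 6 and 24 h. The genes that rose at 1 h had median effects of 0.58 at 1 h, 0.16 at 3 h and -0.06 at both 6 and 24 h, and those that fell had medians of -0.46, -0.02, 0.06 and 0.06. These medians are a description, because the 1 h arrays chose the genes. At 3 h limma called 62 of the rises in the same direction and 7 in the opposite one, 20 of the falls in the same direction and 13 in the opposite one, and over all 13438 genes 857 and 417. At 6 and 24 h it called 0 of the 13438 genes, with 695 and 838 at an unadjusted p under 0.05, of which 44 and 45 were genes that rose at 1 h and 38 and 37 genes that fell. The 1 h effect differed from the mean effect of 6 and 24 h for 1086 of 31042 probe sets (3.5%). By brightest probe set it did so for 601 of 13438 genes, of which 261 had risen and 231 had fallen at 1 h. The same 1 h arrays chose those genes and enter this difference, so the 261 and 231 are a description. At 3 h the 3′ minus 5′ index was 0.178 ± 0.065 in PH3 lungs and 0.445 ± 0.078 in Air lungs (SD, n = 4 each), so RNA integrity and exposure cannot be told apart at that time.

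Among genes called at 1 h, the 6 with the clearest difference from later times were Fkbp5, Map3k6, Maff, Rapgef5, Adamts9 and Nedd4l. The adjusted p-values of this difference reuse the 1 h arrays that made those calls. Rapgef5, an activator of the small GTPase Rap, read 10.67, 10.45, 9.97 and 10.53 in PH3 lungs and 9.50, 8.94, 9.08 and 8.61 in Air lungs at 1 h (1.37 ± 0.18, adjusted p = 1.8e-05), and its effects were -0.13, -0.64 and -0.41 at 3, 6 and 24 h. Its 1 h effect exceeded the mean of 6 and 24 h by 1.90 ± 0.22 (adjusted p = 6.47e-06). Fkbp5 had effects of 2.38, 1.02, -0.98 and -1.04 at the 4 times, with calls at 1 and 3 h (adjusted p = 0.02 at 3 h), and exceeded its later mean by 3.39 ± 0.34 (adjusted p = 1.47e-06). Mt2A went through 2.59, 1.15, 0.25 and -0.24, with calls at the same times. Gal declined slowly, through 1.97, 1.54, 0.92 and 0.33, and Il1r2 had effects of 1.63 at 1 h and 1.78 at 3 h before -0.21 at 6 h. Some falls had the other sign by 3 h, as in Meox2, with -1.15 at 1 h and 0.91 at 3 h (adjusted p = 0.011), and Ahr, with -1.23 and 0.48 (adjusted p = 0.14 at 3 h). For all these 3 h effects RNA integrity and exposure cannot be told apart.

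**Figure D4:**
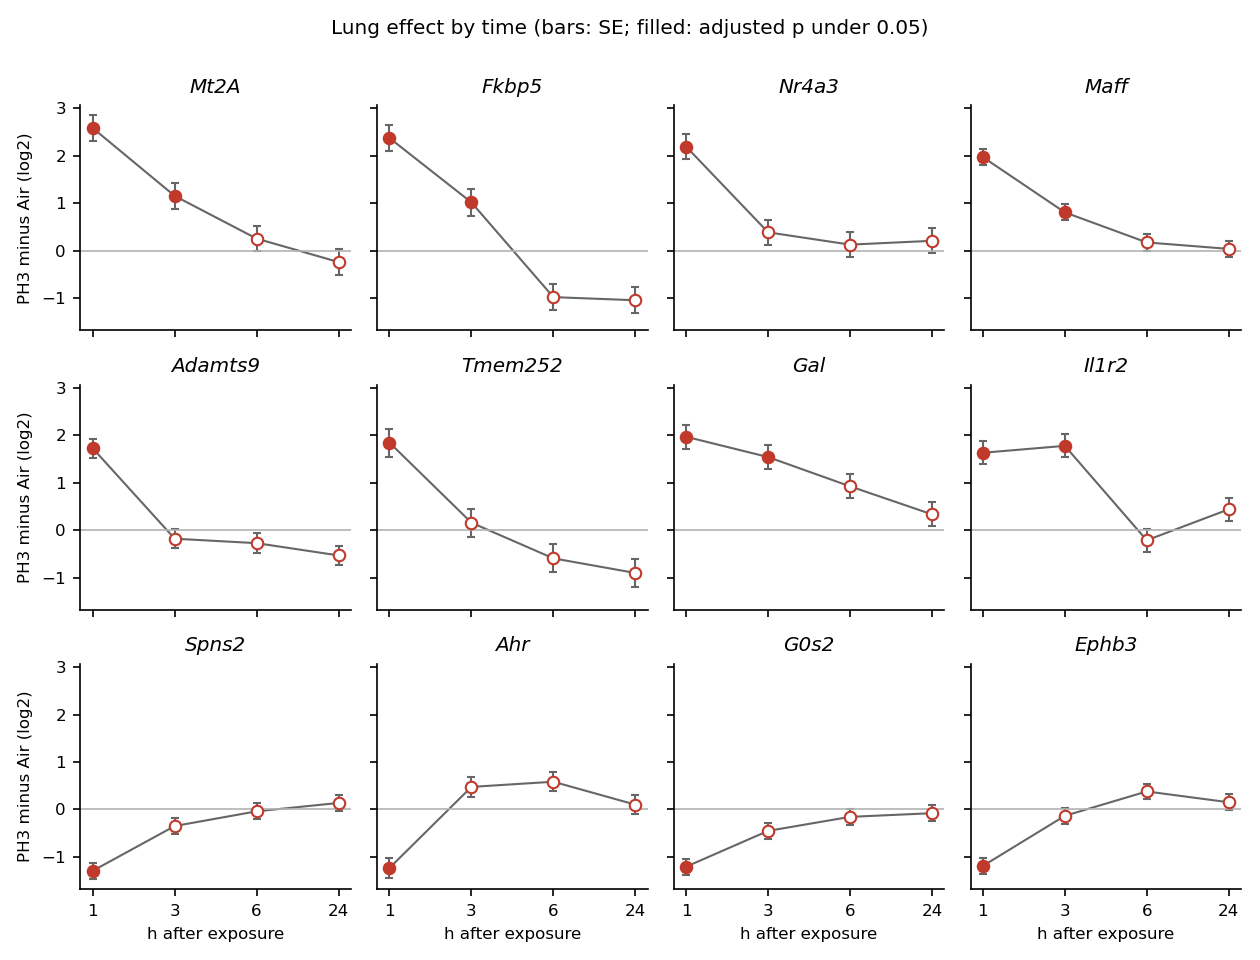
Effect of phosphine in lung (PH3 minus Air, log2, with SE) at 1, 3, 6 and 24 h for 12 genes; filled points have an adjusted p under 0.05. All 12 are called at 1 h, and none at 6 or 24 h, with Gal at 0.92 and Fkbp5 at -0.98 at 6 h. At 3 h RNA integrity and exposure cannot be told apart.

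The same 8 rats gave heart and kidney at 1 h, so the lung's response was set against those organs. In the heart the genes that rose in lung had a median effect of 0.22 and those that fell -0.28, and in the kidney the medians were 0.16 and -0.15. The lung effect differed from the heart effect for 13 of 31042 probe sets (0.0419%), of which 11 were called in lung, and from the kidney effect for 51 (0.164%), of which 33 were called in lung. With lung minus heart taken within each rat, the replicate block for this comparison, limma called 0 probe sets for the heart, where 3328 had an unadjusted p under 0.05 without the block, and 17 for the kidney. The counts without PH3 Rat351 were 293 for the heart and 243 for the kidney, and without PH3 Rat357 they were 0 and 1. Without any other rat the counts were 0 or 1 for the heart and 4 to 26 for the kidney.

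Tmem26, a membrane protein, differed from both organs in the fit that does not pair organs by rat. It kept neither call with the difference taken within rats (adjusted p = 0.0857 for heart and 0.066 for kidney). It read 7.97, 7.87, 7.11 and 8.0 in PH3 lungs and 5.75, 6.28, 5.89 and 6.32 in Air lungs, a 3.20-fold rise (1.68 ± 0.26, adjusted p = 0.000125), while its effect was -0.17 ± 0.14 in heart and -0.19 ± 0.14 in kidney. The lung effect exceeded that of heart by 1.85 ± 0.25 (adjusted p = 0.0253) and that of kidney by 1.87 ± 0.26 (adjusted p = 0.00971). Wnk2, a kinase of the family that controls salt transporters, read 6.19, 6.33, 6.37 and 6.52 in PH3 lungs and 5.39, 5.10, 5.55 and 5.26 in Air lungs (1.03 ± 0.20, adjusted p = 0.00184). It differed from heart by 1.18 ± 0.15 (adjusted p = 0.0197) and from kidney by 1.18 ± 0.18 (adjusted p = 0.0194). Adgrl2, a latrophilin adhesion receptor, and Fam117a rose by 0.87 ± 0.12 and 0.54 ± 0.10 in lung, and differed from heart and kidney too. Fam117a had an adjusted p of 0.0795 in lung against the Air arrays of all times. Plat and Atp1b1 differed from kidney, by 1.16 ± 0.15 and 0.87 ± 0.13 (adjusted p = 0.00816 and 0.0127).

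Spns2 differed from heart in the other direction, by -1.97 ± 0.32 (adjusted p = 0.048), with an effect of 0.68 ± 0.20 in heart (adjusted p = 0.11). Cnr1, the cannabinoid receptor CB1, read 8.47, 8.41, 8.13 and 8.37 in PH3 lungs and 7.96, 6.79, 6.82 and 7.06 in Air lungs (1.19 ± 0.28, adjusted p = 0.0121; 0.0566 without Air Rat352 and 0.0507 without Air Rat353). It differed from heart by 1.63 ± 0.27 (adjusted p = 0.049). A dimmer Cnr1 probe set had an effect of 0.34 in lung and was not called (adjusted p = 0.309). All the differences from heart named here lost their calls in the within-rat block, and of the 6 genes refitted against kidney Plat, Atp1b1 and Wnk2 kept theirs while Tmem26, Adgrl2 and Fam117a did not. Mt2A rose by 2.63 ± 0.44 in heart and by 0.59 ± 0.12 in kidney, the second a difference from lung of 1.999 ± 0.37 (adjusted p = 0.042). Atf3 rose by 4.03 ± 0.55 in heart and 3.39 ± 0.26 in kidney, but its differences from the lung did not pass (-2.92 ± 0.72, adjusted p = 0.15, and -2.28 ± 0.45, adjusted p = 0.0579). Some genes not called in lung did differ from kidney. Igfbp1, Gdf15 and Nr4a1 rose in kidney by 1.825 ± 0.22, 2.83 ± 0.22 and 2.76 ± 0.23. Their lung effect minus kidney effect was -1.94 ± 0.22, -2.40 ± 0.32 and -1.995 ± 0.32 (adjusted p = 0.00353, 0.00898 and 0.0232). None of them was among the 6 genes refitted within rats. Of all 51 differences from kidney 25 were positive and 26 negative.

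**Figure D5:**
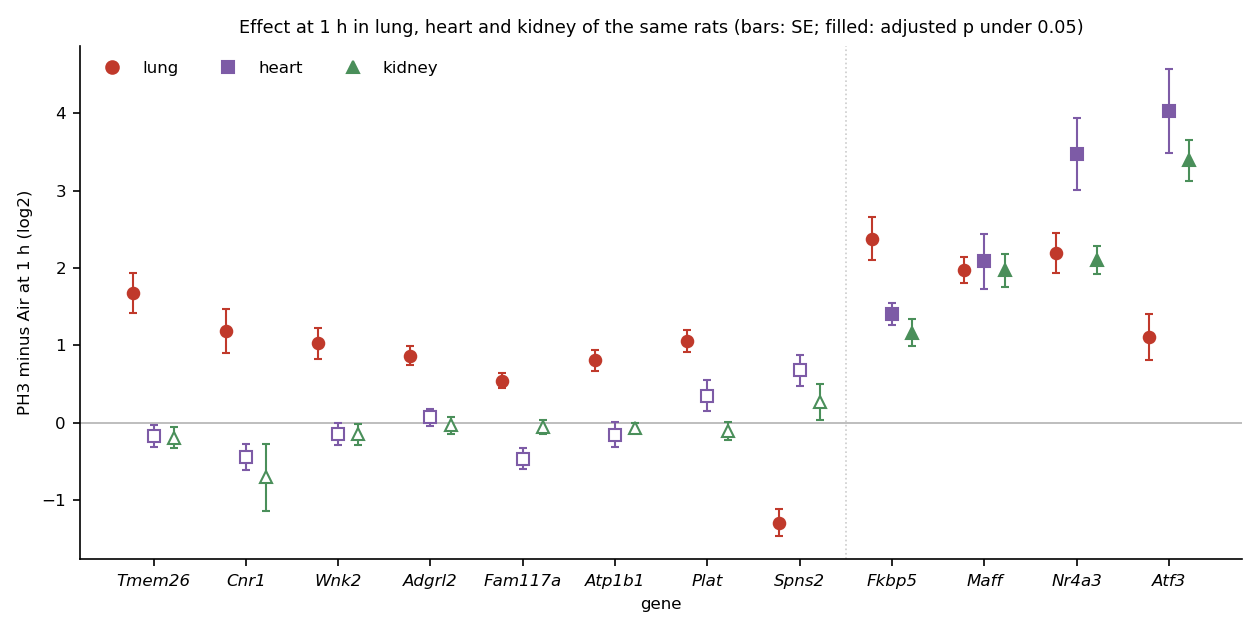
Effect of phosphine at 1 h (PH3 minus Air, log2, with SE) in lung, heart and kidney of the same rats for 12 genes; filled points have an adjusted p under 0.05. The 8 genes left of the dotted line differ between lung and at least 1 other organ in the fit that does not pair organs by rat. Tmem26 is an example, with 1.68 in lung and -0.17 and -0.19 in heart and kidney. Of these calls, only those of Plat, Atp1b1 and Wnk2 against kidney are kept with differences taken within rats. The 4 genes on the right, such as Maff, are called in all 3 organs.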

How the data were processed

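Lung, heart and kidney arrays of rats exposed to phosphine or air were used. The deposited values are log2 intensities per probe set. Per the submitters' processing notes RMA and Partek were used, with versions not given in the sources used here; per the labels' protocols RNA was labelled by 3′ in vitro transcription, which reads the 3′ ends of transcripts, so degraded RNA and probe placement can change a value. RMA sets all arrays to 1 distribution, so differences are relative to the bulk of the genes, and arrays have no read depth: their number limits the precision.

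Of 31139 probe sets 97 control ones were left out, and 19063 of the rest named 1 gene, 572 several and 11407 none in the platform annotation, with symbols updated through RefSeq tables. The brightest probe set stood for each of 13438 genes, and among 39 other probe sets of 32 named genes 3 had the opposite sign, none of them called, and 16 were not called. PH3 and Air were compared with limma 3.58.1 in R 4.3.3, without an intensity filter, over 32 lung arrays in 8 groups of tissue, exposure and time, with Benjamini-Hochberg adjustment over all 31042 probe sets. Organ differences were tested as interactions over the 8 rats' lung and heart, or lung and kidney, arrays. The script was tested on simulated data. Named genes are the 12 largest rises and 12 largest falls without overlap between groups, up to 4 called members of each list by size, and the 6 called genes with the smallest p for each of the organ and time differences. Other list members are given as values only. The called ones among them, such as Errfi1, Glul, Pde4b and Aplnr, were not followed individually through the alternatives, so no kept call is implied. Members and lists were chosen with earlier results of these data known, so they are no independent evidence.

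The same rat gave each organ, so rat numbers pair the arrays. Deviations from the group means correlated at 0.121 on average between lung and heart of the same rat, against -0.0405 between different rats, and at 0.0957 against -0.0317 between lung and kidney. The alternatives were the 8 arrays alone, Air arrays of all times as controls, array medians subtracted, the brighter 50% of probe sets, an intensity trend, array weights, the 3′ index, a red cell score, the rat as block and leaving out each rat. Heart muscle, fat and B cell scores and leaving out the 3 h arrays were added after the data were seen. Promoter windows came from RefSeq for 11057 of the 13438 genes.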

Additional observations from a re-analysis of the deposited data

Results flagged for a closer look

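Among the 85 genes chosen by the naming rule, 11 of 170 groups of 4 arrays held a value far from the other 3 by Dixon's criterion, and chance flags about 1 in 20. In PH3 lungs, Rat351 was low for Gal (6.231, with the others at 7.011 to 7.149), Il6r (7.999, with the others at 8.59 to 8.71), Plat (9.878, with the others at 10.42 to 10.51) and Tmem26 (7.111, with the others at 7.867 to 7.996). Rat357 was low for Ahr (5.039, with the others at 5.36 to 5.38) and Meis2 (5.955, with the others at 6.244 to 6.278), and Rat350 was low for Gadd45a (9.264, with the others at 9.434 to 9.465). In Air lungs, Rat345 was low for Il1r2 (4.394) and Rat353 for Slc7a5 (5.226), while Rat353 was high for Hk2 (4.875) and Rat354 for Fosb (4.822).

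The effect of phosphine differed between lung and heart of the same rats, by limma's interaction, for Wnk2 (1.175, adjusted p = 0.0197), Tmem26 (1.853, 0.0253), Fam117a (1.008, 0.0253), Spns2 (-1.969, 0.048), Adgrl2 (0.7958, 0.048) and Cnr1 (1.634, 0.049). With the difference taken within each rat all 6 lost their calls (adjusted p = 0.126 for Adgrl2 and 0.0857 for the others). It differed between lung and kidney for Plat (1.164, adjusted p = 0.00816), Tmem26 (1.872, 0.00971), Atp1b1 (0.869, 0.0127), Adgrl2 (0.9029, 0.0187), Wnk2 (1.177, 0.0194) and Fam117a (0.5945, 0.0305). Within rats Tmem26, Adgrl2 and Fam117a lost theirs (adjusted p = 0.066, 0.0767 and 0.124), and Plat, Atp1b1 and Wnk2 did not (0.0485, 0.0485 and 0.042). Within lung, the 1 h effect differed from the mean of 6 and 24 h for Fkbp5 (3.387, adjusted p = 1.47e-06), Map3k6 (2.595, 4.48e-06), Maff (1.867, 5.69e-06), Rapgef5 (1.898, 6.47e-06), Nedd4l (0.8543) and Adamts9 (2.128), the last pair at an adjusted p of 7.55e-06. These genes were chosen among those called at 1 h, so the same 1 h arrays enter both the choice and the test.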

How the results depend on the processing

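Against 2.35% of the 31042 probe sets higher and 1.89% lower, the shares were 0.966% and 0.705% with only the 8 arrays of 1 h, 1.55% and 1.21% with a red cell score and 1.21% and 0.844% with a B cell score, and 4.24% were lower against the Air arrays of all times. Leaving out a rat gave 1.39% to 2.67% higher and 1.08% to 2.13% lower. With the rat as a replicate block over the 1 h arrays of lung, heart and kidney, the shares were 1.18% and 0.821%. That fit replaced the 32 lung arrays, so pairing and array set cannot be told apart in it. With differences taken within rats, the 13 lung-heart and 51 lung-kidney differences became 0 and 17. The 13 became 3 with variance weights, 32 among the brighter probe sets and 20 with an intensity trend. Without 1 rat the ranges were 0 to 293 for heart and 1 to 243 for kidney. The 1086 differences between 1 h and later became 546 with a red cell score and 752 to 1277 without 1 rat. Of 85 named genes 36 kept their call in every setting with a test, of which the brighter 50% of probe sets held 73 genes. No effect changed sign, and the mean over all probe sets, run for the 32 genes with more than 1, moved 7 by over 1 SD between rats. The call was lost by 38 genes with only the 8 arrays, 30 with the block, 17 with the red cell score, 28 with the B cell score and 3 to 19 without 1 rat. The cause was not tested, beyond the fewer arrays in the fits that leave arrays out.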

Other observations

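Class I genes of the rat major histocompatibility complex had large effects without a call. A probe set of RT1-CE5 had an effect of -3.04 ± 1.81 (adjusted p = 0.467), and RT1-T24-3 had -2.23 ± 1.15 (adjusted p = 0.370). Both were chosen after their values were seen.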
